A study of Mus musculus with 6 samples.

Results

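The genes described here are the glycosyltransferases that start, extend and cap mucin-type O-glycans, together with the enzymes that add terminal fucose, sialic acid and N-acetylgalactosamine to other glycans. Members were chosen by symbol, as every row named Galnt, C1galt1, Gcnt, B3gnt, B3galt, B4galt, B4galnt, Fut, St3gal, St6gal, St6galnac or St8sia, and 76 of the 19844 genes in the table met the rule. The measured tissue was distal colon of C57BL6 mice on day 17 of AOM/DSS, that is azoxymethane, a carcinogen, with dextran sulfate sodium, a polymer that damages the gut epithelium. There were 3 wild-type (WT) mice and 3 ChREBP knockout mice, and all 6 had received AOM/DSS, so no mouse was untreated. ChREBP, encoded by Mlxipl, is a transcription factor that responds to glucose. The sources used here describe neither the deleted part of the gene, nor the cells that lack it, nor the age of the mice. The question of the series is whether ChREBP promotes colon tumour formation through the Wnt/beta-catenin pathway.

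Mucins are long proteins whose serines and threonines carry dense sugar chains, and Muc2 forms the gel that covers the colon lining. A Galnt enzyme places the first N-acetylgalactosamine on the protein, core enzymes add galactose or N-acetylglucosamine to it, and B3gnt, B3galt and B4galt enzymes lengthen the chain. Fucosyltransferases, sialyltransferases and B4galnt enzymes end the chain, and many of them also act on N-linked glycans and glycolipids. Bulk tissue holds epithelium, stroma and immune cells, so fewer cells of a type and less RNA per cell cannot be told apart here.

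Expression was deposited as FPKM, fragments per kilobase of transcript scaled to the mapped total, which may be set side by side between genes because it is per length. Short non-coding genes, whose values step by whole reads, gave an estimated depth between 17700000 and 18475000 reads a library. The epithelial markers Epcam and Cdh1 lay between 684.86 and 812.18 FPKM and between 311.43 and 375.10 FPKM, and Muc2 lay between 427.29 and 928.52 FPKM. Every mouse is labelled female, but the Y-linked gene Ddx3y lay between 9.51 and 12.11 FPKM in every library and Xist between 0.02 and 0.04 FPKM. Mlxipl read 5.84, 7.49 and 7.27 FPKM in wild-type replicates 1 to 3 and 3.40, 5.66 and 5.04 FPKM in the knockouts, so its transcript was still present in each knockout. The knockout values lay below the wild types by a gap of 0.18 FPKM against a pooled SD of 1.04 FPKM. The log2 fold change, knockout minus wild type on the scale given below, was -0.48 (95% interval -0.89 to -0.07, limma adjusted p = 0.9995) and -0.304 without knockout replicate 1, so this difference did not pass the test across all genes. Every difference below is a log2 fold change of FPKM + 1, taken as knockout minus wild type, which understates how far low genes differ. It comes from limma fitted across the 13247 genes that reached 1 FPKM in at least 3 libraries. Values are FPKM in replicates 1 to 3, or mean ± SD with n = 3 mice per genotype.

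The upstream sequences of B3gnt7 and St6galnac4 are printed because these members had the smallest p of all 57 tested. They are the 250 bases before the transcription start in the RefSeq promoter table of GRCm38.p6, a different build from the mm39 of the expression values. Capitals mark CACGTG, the repeat of the paired element that ChREBP and its partner Mlx are known to bind, which other E-box factors bind too.
B3gnt7, GRCm38.p6 chr1:86302971-86303220, plus strand: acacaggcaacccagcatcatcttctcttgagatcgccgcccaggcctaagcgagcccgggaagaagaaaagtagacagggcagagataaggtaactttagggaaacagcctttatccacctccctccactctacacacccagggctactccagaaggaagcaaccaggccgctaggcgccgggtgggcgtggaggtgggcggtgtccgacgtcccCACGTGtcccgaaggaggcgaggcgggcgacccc
St6galnac4, GRCm38.p6 chr2:32586828-32587077, plus strand: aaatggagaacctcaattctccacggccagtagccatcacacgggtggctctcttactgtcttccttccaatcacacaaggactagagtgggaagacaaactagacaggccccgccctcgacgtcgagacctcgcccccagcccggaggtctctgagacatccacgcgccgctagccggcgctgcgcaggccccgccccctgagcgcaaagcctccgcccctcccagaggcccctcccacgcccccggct
The B3gnt7 stretch held 1 CACGTG, beginning 34 bases before the start, and the St6galnac4 stretch held 0. CACGTG reads the same on both strands. The promoter table had entries for 55 of the 76 members, and 5 of these 55 genes (9.09%) held CACGTG in the 250 bases, against 8.64% of the 15192 genes of the expression table with an entry. Counted by promoter, 5 of the members' 75 entries (6.67%) held it, against 7.36% of the 18827 promoters of genes in the expression table. Of all 32851 promoters of that length in the promoter table, 6.02% held it. Besides B3gnt7 the members with a match were B3galt5, B3galt2, Galnt9 and St6galnac3. The paired element was searched only in a strict form, CACGTG repeated after a spacer of any 5 bases with an exact match in both repeats. This form was found in 0 of the 32851 promoters, so the search could not tell members apart. Paired elements with a mismatch were not searched. A match is a description of the letters and not a binding site.

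Levels differed widely between members. There were 5 members with a mean of 100 FPKM or more over the 6 libraries, 31 between 10 and 100 FPKM, 21 between 1 and 10 FPKM and 19 below 1 FPKM. The 5 most abundant were St6galnac6 (430.0 FPKM), B3gnt7 (425.6), B3galt5 (159.1), B3gnt3 (152.5) and St3gal6 (128.4). The first transfers sialic acid to gangliosides and related chains, the next 3 build lactosamine or type 1 chains, and St3gal6 caps galactose with sialic acid. The 19 members below 1 FPKM in the mean were the ones that did not pass the filter, and they were tested only in the fit without a filter.

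**Figure D1:**
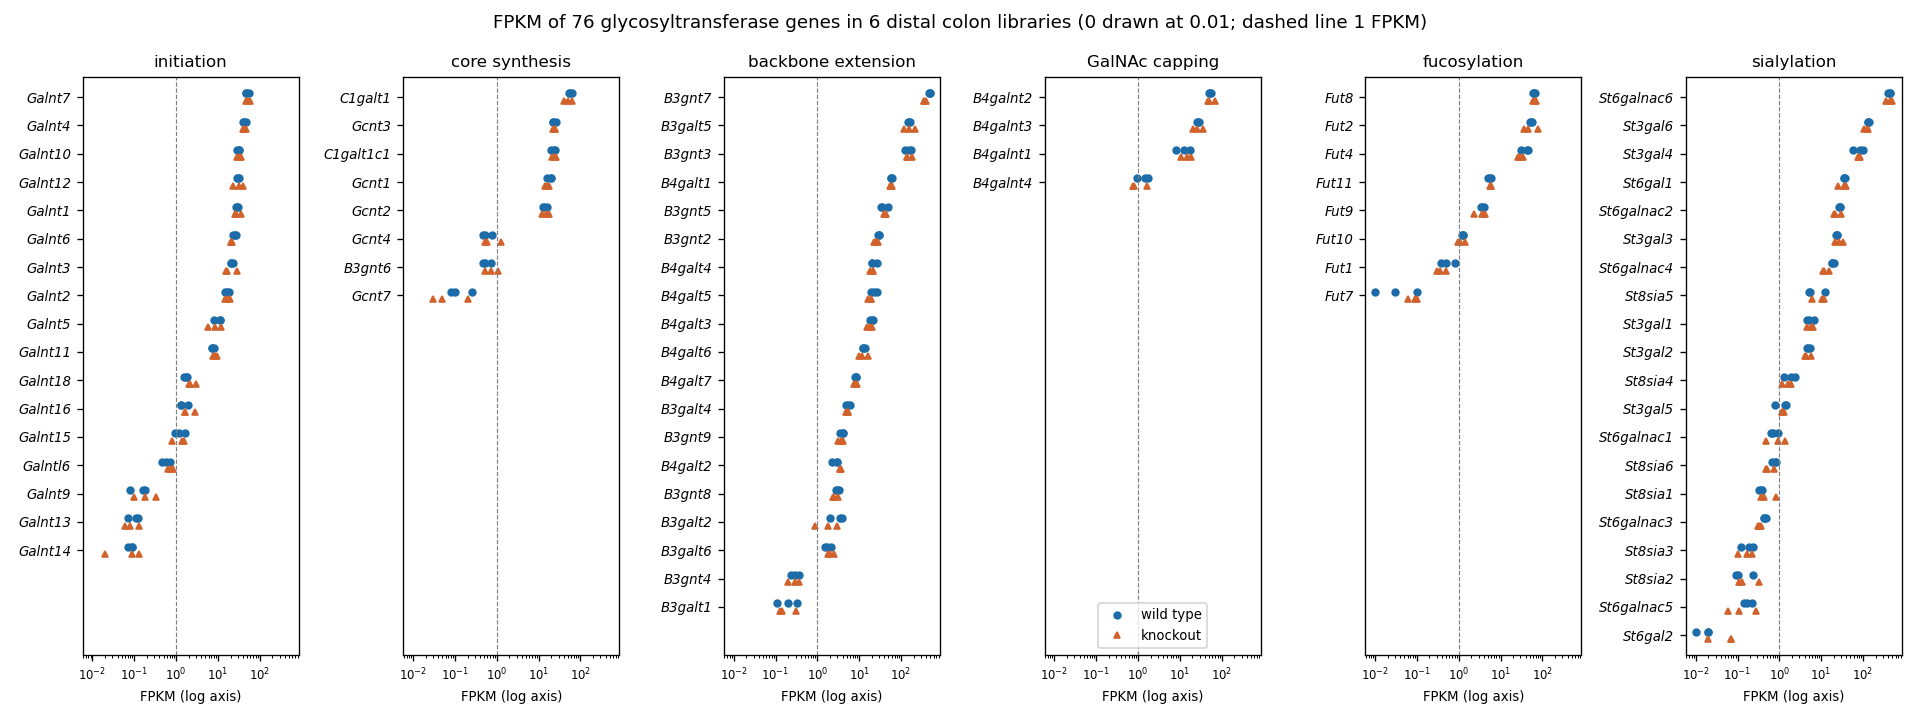
FPKM on a log axis for each of the 76 glycosyltransferase genes, in 6 panels by role, with 3 wild-type points (circles) and 3 knockout points (triangles) per gene, values of 0 drawn at 0.01 and a dashed line at 1 FPKM. Genes run from high to low within a panel, and St6galnac6 and B3gnt7 lie farthest to the right.

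None of the tested members passed the test of genotype across the table. In limma 0 of the 57 tested members had an adjusted p under 0.05 (smallest adjusted p = 0.9995, Benjamini-Hochberg over all genes), where 0.0151% of all tested genes did. At an unadjusted limma p under 0.05 there were 5 members, all with lower values in the knockouts: B3gnt7, St6galnac4, Fut4, Galnt6 and B4galt5. That is 5 of 57, against 3.40% of all genes in either direction and 1.70% in that direction. Toward higher values there were 0 members, against 1.70% of all genes. The 3 knockout values lay wholly below the 3 wild-type values in 5 tested members, where 4.14% of all genes did so, and wholly above in 2, where 4.53% did so, together 7 of 57 against 8.67% of all genes. The median log2 fold change was -0.01 over the members and 0.01 over all genes tested, with 26 members positive and 31 negative. The 95% interval of 55 of the 57 stayed inside 2-fold up or down on this scale, the exceptions being B3galt2 and St8sia5. The 3.40% of all genes were 450 of 13247. Without knockout replicate 1 there were 9 of 56 members at an unadjusted limma p under 0.05, all negative, where 802 of 13137 genes reached that level in either direction. Without wild-type replicate 1, where 380 of 13122 genes did, there were 2 of 56 members, B3gnt7 and St6galnac4. Both stayed under 0.05 in each of the 14 other settings. These settings reuse the same libraries, and how many of all genes stayed so was not counted. The direction of the set was not one-sided in all settings. Without the trend 2 members (B4galt2 and Galnt18) were positive and 3 negative at that level, and with array weights 1 was positive and 6 negative. Without wild-type replicate 3 the split was 2 and 5, without knockout replicate 2 it was 1 and 5, and without knockout replicate 3 it was 1 and 3. All genes at that level numbered 457 without the trend, 631 with array weights and 450, 485 and 536 in these 3 fits.

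**Figure D2:**
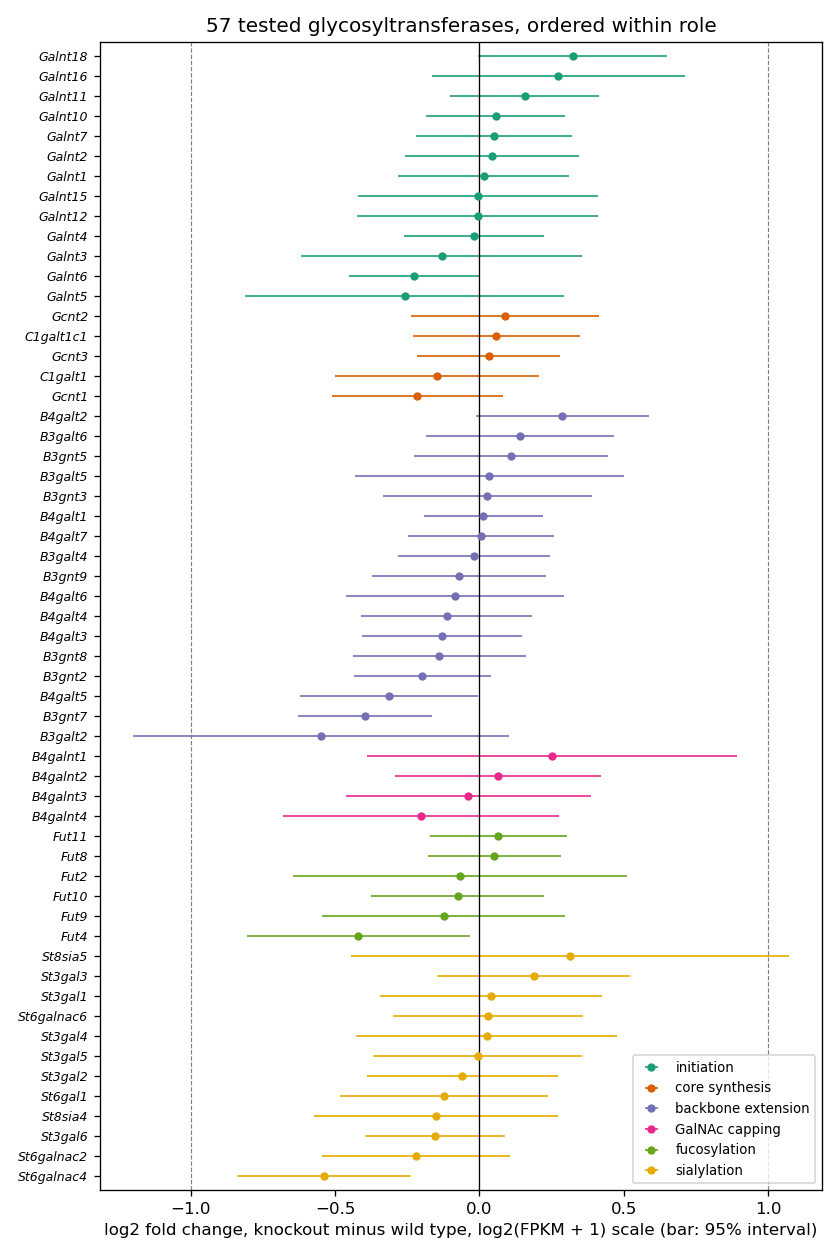
Log2 fold change of FPKM + 1 (knockout minus wild type) for the 57 tested glycosyltransferases, grouped by role and coloured accordingly, with limma's 95% intervals as bars and dashed lines at 2-fold. St6galnac4 and B3gnt7 have intervals farthest from 0, and only B3galt2 and St8sia5 reach past a dashed line.

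B3gnt7, which lengthens lactosamine chains and takes part in making keratan sulfate, was the most abundant enzyme of chain extension. It read 483.50, 472.54 and 494.86 FPKM in wild type and 347.53, 359.74 and 395.13 FPKM in the knockouts. Every knockout lay below every wild-type library, and the gap between the groups, 77.4 FPKM, was larger than the pooled SD of 19.2 FPKM. Knockouts averaged 75.98% of wild type (367.5 ± 24.7 against 483.6 ± 11.2 FPKM), a log2 fold change of -0.40 (SE 0.10, 95% interval -0.63 to -0.16). The limma adjusted p over all genes was 0.9995, so the difference did not pass the test across the table. Under the 14 other settings tried, the log2 fold change of B3gnt7 lay between -0.45 and -0.36.

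St6galnac4, which adds a further sialic acid to sialylated core 1 chains, also had lower values in the knockouts. It read 20.04, 18.16 and 17.90 FPKM in wild type and 15.17, 10.99 and 11.82 FPKM in the knockouts. The groups did not overlap, with a gap of 2.73 FPKM against a pooled SD of 1.77 FPKM. Knockouts averaged 67.7% of wild type (12.7 ± 2.21 against 18.7 ± 1.17 FPKM), a log2 fold change of -0.54 (SE 0.13, 95% interval -0.84 to -0.24, limma adjusted p = 0.9995). St6galnac6, the next gene along the same chromosome among the promoters of the RefSeq table, read 443.44, 433.76 and 394.33 FPKM in wild type and 498.41, 454.43 and 355.89 FPKM in the knockouts. Its groups overlapped fully, with a log2 fold change of 0.03 (95% interval -0.30 to 0.36) whose sign changed with array weights.

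The other tested members whose groups did not overlap had gaps of 0.63 FPKM or less. Galnt6, an initiating enzyme, read 25.03, 22.65 and 26.60 FPKM in wild type and 22.02, 20.21 and 20.69 FPKM in the knockouts. Its gap of 0.63 FPKM was smaller than its pooled SD of 1.56 FPKM (log2 fold change -0.23, 95% interval -0.45 to -0.0033). B4galt5, a lactosylceramide synthase at the start of glycosphingolipid synthesis, read 22.03, 26.47 and 19.52 FPKM in wild type and 19.36, 15.87 and 18.70 FPKM in the knockouts, a gap of 0.16 FPKM against a pooled SD of 2.81 FPKM (log2 fold change -0.31, 95% interval -0.62 to -0.0043). B3gnt2, an enzyme of polylactosamine synthesis, was 0.01 FPKM from overlapping, at 29.1 ± 1.39 FPKM in wild type and 25.4 ± 2.57 FPKM in knockout (log2 fold change -0.20, 95% interval -0.44 to 0.04). The 2 members placed higher were low in abundance. B4galt2, which adds galactose in lactosamine, read 2.87, 3.02 and 2.19 FPKM in wild type and 3.41, 3.66 and 3.39 FPKM in the knockouts (log2 fold change 0.29, 95% interval -0.01 to 0.59). Its gap was 0.37 FPKM against a pooled SD of 0.33 FPKM. Galnt18, a member of the initiating family, read 1.58, 1.71 and 1.79 FPKM in wild type and 2.18, 2.02 and 2.98 FPKM in the knockouts (log2 fold change 0.32, 95% interval -0.0037 to 0.65). Its gap was 0.23 FPKM against a pooled SD of 0.37 FPKM. Of these 7 members with separate groups, the gap exceeded the pooled SD in B3gnt7, St6galnac4 and B4galt2, which was not counted over all genes. The limma adjusted p was 0.9995 for each of the 7. Leaving out 1 mouse moved some of these log2 fold changes by over 1.5 times: B4galt5 was at -0.201 without wild-type replicate 2, B3gnt2 at -0.12 without knockout replicate 1, B4galt2 at 0.185 without wild-type replicate 3 and Galnt18 at 0.203 without knockout replicate 3.

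**Figure D3:**
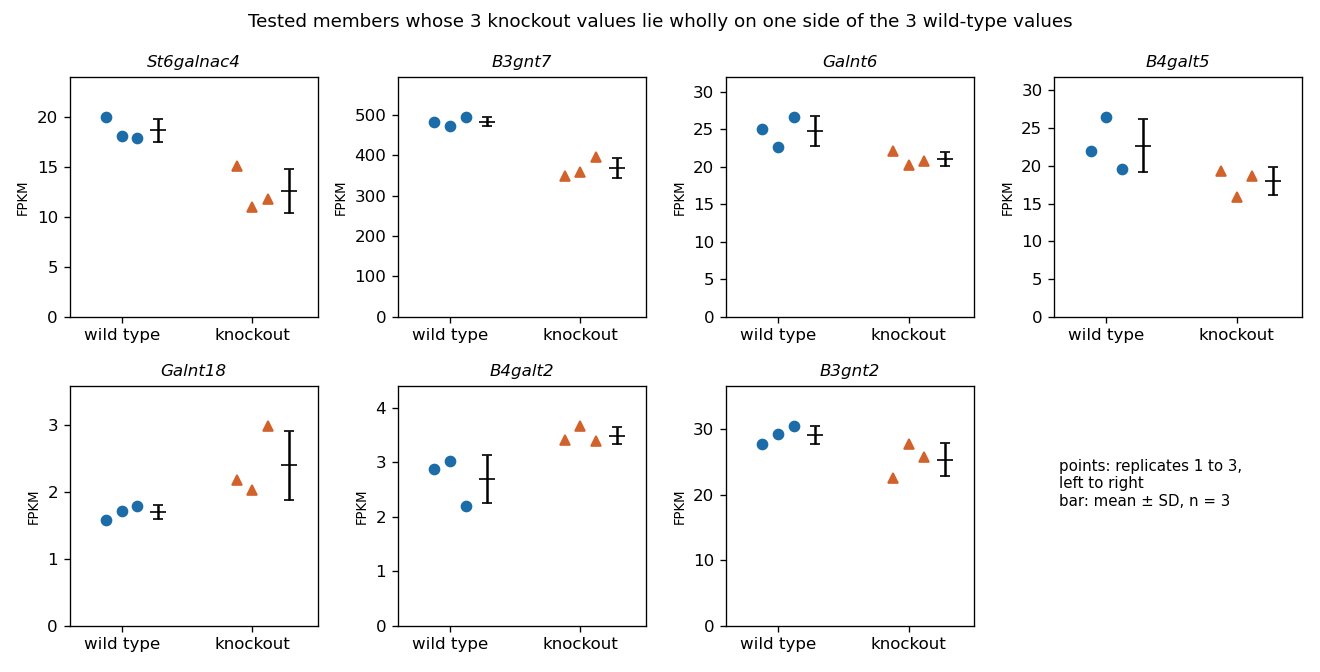
FPKM of the 7 tested members whose genotypes do not overlap, with circles for wild type, triangles for knockout (replicates 1 to 3 from left to right) and bars for mean ± SD (n = 3), each axis starting at 0. B3gnt7 lies at or above 472.54 FPKM in every wild type and at or below 395.13 FPKM in every knockout.

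Of the 17 initiating Galnt genes, 13 were tested, 7 with positive and 6 with negative log2 fold changes (median 0.01, negative after scaling libraries to equal total). Galnt7, which acts on peptides that already carry a sugar, led at 46.75, 46.63 and 55.43 FPKM in wild type and 57.02, 51.63 and 45.69 FPKM in knockout. Galnt4 followed at 42.44, 40.09 and 47.17 FPKM and 46.97, 40.13 and 40.97 FPKM, and the ranges of the pair overlapped. Neither gene separated the genotypes. Both lay above the third, Galnt10, in every library. Galnt10, Galnt12, Galnt1, Galnt6, Galnt3 and Galnt2 formed a run from 31.6 down to 16.95 FPKM. Neighbours in it overlapped, so the order of neighbours is not fixed by these data. Galnt10 lay above the ranges of Galnt6, Galnt3 and Galnt2. Galnt12 and Galnt3 had the largest SD of the family among the knockouts, at 39.55, 31.87 and 22.80 FPKM and at 28.68, 15.75 and 16.37 FPKM, while their wild types lay between 29.35 and 32.53 and between 20.17 and 23.29 FPKM. The remaining members of the family were low. Galnt5 and Galnt11 were at 9.49 and 8.08 FPKM in the mean of 6 libraries, and Galnt18, Galnt16 and Galnt15 between 1.25 and 2.04 FPKM. Galntl6 lay between 0.46 and 0.85 FPKM, and Galnt9, Galnt13 and Galnt14 at 0.33 FPKM or less in every library. Wbscr17, which RefSeq calls Galnt17 and which the symbol rule therefore missed, read 0.71, 1.15 and 1.09 FPKM in wild type and 0.80, 0.79 and 1.20 FPKM in knockout.

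The core enzymes showed no member with separate groups. C1galt1, which makes core 1 by adding galactose, was the most abundant at 55.04, 53.61 and 61.76 FPKM in wild type and 63.32, 41.38 and 50.75 FPKM in knockout. Its dedicated chaperone C1galt1c1 was at 22.8 ± 2.67 FPKM and 23.7 ± 2.66 FPKM. The core 2 and core 4 branching enzyme Gcnt3 was at 23.3 ± 2.38 FPKM and 23.8 ± 1.70 FPKM. The other core 2 enzyme, Gcnt1, read 19.97, 20.28 and 15.70 FPKM in wild type and 17.41, 14.28 and 15.95 FPKM in knockout (log2 fold change -0.21, 95% interval -0.51 to 0.08), with overlapping groups. Gcnt2, which branches lactosamine chains, was at 13.95 ± 1.59 FPKM and 14.96 ± 2.47 FPKM. B3gnt6, the core 3 enzyme, was low in this tissue, at 0.47, 0.51 and 0.72 FPKM in wild type and 1.08, 0.73 and 0.51 FPKM in knockout, below the filter. C1galt1 lay above all other core enzymes in every library. Gcnt4 lay between 0.46 and 1.25 FPKM and Gcnt7 between 0.03 and 0.25 FPKM. The 5 tested core members had a median log2 fold change of 0.03.

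Chain extension carried the most RNA of the 6 roles. The summed FPKM of its 19 members was 1021 ± 13.1 in wild type and 906.0 ± 62.6 in knockout, with B3gnt7 making up 47.4% ± 0.519 of it in wild type and 40.8% ± 5.11 in knockout. Among the 8 B3gnt genes alone the sum was 710.1, 711.2 and 708.1 FPKM in wild type and 607.9, 572.4 and 605.9 FPKM in knockout, so the groups of the sum did not overlap. B3gnt7 is itself part of both sums, and it made up 68.1% ± 1.73 of the B3gnt sum in wild type and 61.7% ± 4.14 in knockout. Neither sum is therefore a finding apart from the difference in B3gnt7. Within the knockouts the other members also moved the B3gnt sum: replicate 1 had the lowest B3gnt7 and the highest sum. B3gnt3, which extends core 1 and is the next B3gnt gene in level, read 156.07, 169.34 and 127.11 FPKM in wild type and 186.15, 136.40 and 140.00 FPKM in knockout, so its groups overlapped. B3gnt5, which starts lacto-series glycolipids, was at 38.4 ± 8.06 FPKM and 41.0 ± 2.64 FPKM, also overlapping. B3galt5, which makes type 1 chains, read 155.84, 143.10 and 165.52 FPKM in wild type and 218.75, 151.37 and 119.78 FPKM in knockout. It held the highest and the lowest library of the study within the knockout group. Its log2 fold change of 0.03 turned to -0.20 without knockout replicate 1. B4galt1, the main lactosamine galactosyltransferase, had the smallest coefficient of variation of the tested members (4.60%), between 54.96 and 61.74 FPKM in the 6 libraries.

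The remaining extension enzymes lay lower. B4galt4 and B4galt3 were at 21.4 and 19.0 FPKM in the mean of 6 libraries, B4galt6, the second lactosylceramide synthase, at 12.7 FPKM and B4galt7, which builds the linker of proteoglycans, at 8.18 FPKM. B3galt2, of the type 1 chain enzymes, read 3.40, 2.04 and 3.81 FPKM in wild type and 2.93, 1.76 and 0.89 FPKM in knockout. Its groups overlapped and its interval reached lower than that of any other tested member (log2 fold change -0.55, 95% interval -1.20 to 0.10). B3galt4, B3gnt9, B3gnt8 and the proteoglycan linker enzyme B3galt6 had means between 1.94 and 5.27 FPKM, and B3gnt4 and B3galt1 lay at 0.37 FPKM or less in every library. Of 17 tested extension members 7 were positive and 10 negative, with a median of -0.07 that was 0.0193 without knockout replicate 3 and -0.0199 without the filter.

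B4galnt2, which makes the Sda antigen at chain ends, led its group at 52.34, 50.82 and 54.40 FPKM in wild type and 70.99, 46.45 and 50.22 FPKM in knockout. Its paralogs B4galnt3 and B4galnt4 transfer the same sugar to N-acetylglucosamine. B4galnt3 was at 27.4 ± 1.32 FPKM and 27.3 ± 7.82 FPKM, and B4galnt4 at 1.36 ± 0.392 FPKM and 1.07 ± 0.514 FPKM. B4galnt1, the ganglioside enzyme that makes GM2, read 12.55, 17.18 and 7.95 FPKM in wild type and 18.92, 14.99 and 10.69 FPKM in knockout, with overlapping groups. The 4 levels lay in separate ranges over the 6 libraries, B4galnt2 above B4galnt3 above B4galnt1 above B4galnt4.

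Among the 8 fucosyltransferases, Fut8, Fut2 and Fut4 made up most of the RNA. Fut8, which adds the core fucose of N-glycans, read 67.06, 62.18 and 60.43 FPKM in wild type and 65.37, 71.89 and 59.80 FPKM in knockout. Fut2, which makes the H antigen of secretory epithelium and mucins, read 55.75, 50.00 and 54.82 FPKM in wild type and 80.35, 44.28 and 37.17 FPKM in knockout. The Fut2 values of knockout replicate 1 lay above, and those of replicates 2 and 3 below, all wild types. Fut4, which builds Lewis x structures, read 46.51, 44.14 and 31.24 FPKM in wild type and 26.38, 28.72 and 34.48 FPKM in knockout. Its log2 fold change was -0.42 (SE 0.17, 95% interval -0.81 to -0.03, limma adjusted p = 0.9995), but the groups overlapped, since wild-type replicate 3 lay below knockout replicate 3. Fut9, another Lewis x enzyme, was at 3.73 ± 0.372 FPKM and 3.41 ± 1.001 FPKM. Fut11 lay between 5.08 and 5.82 FPKM and Fut10 between 0.97 and 1.39 FPKM. Fut1, the paralog of Fut2, lay between 0.30 and 0.82 FPKM. Fut7, known from leukocytes, was at 0.10 FPKM or less and listed at 0 in 1 wild type. The median of the 6 tested fucosyltransferases was -0.07, and it was near 0 without knockout replicate 1.

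Of the 20 sialyltransferases 12 were tested, 5 with positive and 7 with negative log2 fold changes (median -0.03). St6galnac6 alone held 55.1% ± 0.494 of their summed FPKM in wild type and 57.2% ± 3.72 in knockout. St3gal6 read 138.65, 131.34 and 135.34 FPKM in wild type and 108.06, 134.62 and 122.55 FPKM in knockout, overlapping through knockout replicate 2. St3gal4, which like St3gal6 caps lactosamine, read 101.18, 85.29 and 56.18 FPKM in wild type and 81.83, 82.71 and 75.51 FPKM in knockout, so here the wild types were the more spread. These 3 levels did not overlap each other over the 6 libraries. St6gal1, the main enzyme of sialic acid on N-glycans, was at 35.5 ± 0.935 FPKM and 33.1 ± 7.22 FPKM. St6galnac2, of the O-glycan sialyltransferases, read 27.32, 27.74 and 27.70 FPKM in wild type and 20.42, 29.66 and 21.47 FPKM in knockout. Its wild types were nearly equal and the knockouts lay on both sides of them (log2 fold change -0.22, 95% interval -0.55 to 0.10). St3gal3 was at 23.4 ± 0.751 FPKM and 27.2 ± 5.55 FPKM.

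The remaining sialyltransferases were lower. St8sia5 read 5.48, 5.19 and 12.44 FPKM in wild type and 6.14, 10.49 and 11.64 FPKM in knockout, with 3 low and 3 high libraries that did not follow genotype. St3gal1, which sialylates core 1, and St3gal2 lay between 4.01 and 6.85 FPKM. St3gal5, the GM3 synthase, lay between 0.78 and 1.45 FPKM, and St8sia4, a polysialic acid enzyme, between 1.15 and 2.36 FPKM. St6galnac1, which makes the sialyl-Tn antigen, read 0.69, 0.93 and 0.64 FPKM in wild type and 0.48, 1.34 and 0.93 FPKM in knockout, below the filter. St6galnac3 was lower in each knockout (0.31 to 0.36 FPKM) than in each wild type (0.42 to 0.49 FPKM), but it did not pass the filter. In the fit without a filter, 1502 of 19844 genes had separate groups. There St6galnac3 was 1 of 5 members at an unadjusted limma p under 0.05, where 686 of all genes were. St8sia6, St8sia1, St8sia3, St8sia2, St6galnac5 and St6gal2 lay at 0.84 FPKM or less in every library, and St6gal2 was listed at 0 in 1 wild type.

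The knockouts varied more among themselves than the wild types did. The SD of log2(FPKM + 1) was larger in knockout than in wild type for 40 of the 57 tested members (70.2%), against 60.6% of all tested genes, with medians of 0.107 in wild type and 0.191 in knockout for the members and of 0.128 and 0.162 for all genes. Knockout replicate 1 was the highest of the 6 libraries for 17 members (29.8%, against 17.3% of all genes), and knockout replicate 3 was the lowest for 19 (33.3%, against 15.6%). Both held at once for 9 members (15.8%, against 3.5% of all genes), namely St6galnac6, B3galt5, Fut2, Galnt7, Galnt10, Galnt12, Galnt1, St3gal3 and B4galt6. These shares describe the 6 libraries and were not tested.

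**Figure D4:**
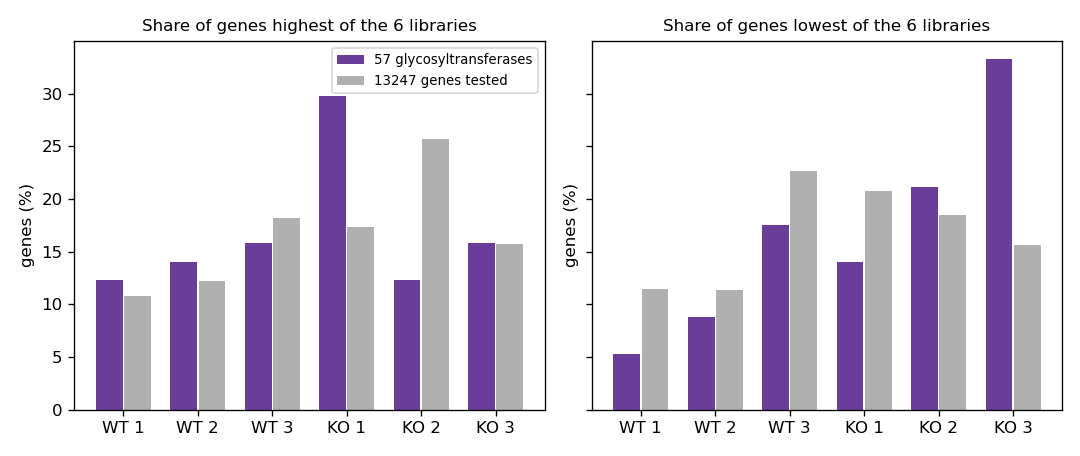
Percent of the 57 tested glycosyltransferases (purple) and of all tested genes (grey) whose highest value (left) or lowest value (right) among the 6 libraries fell in each library, WT for wild type and KO for knockout, with replicates 1 to 3. The members peak in KO 1 (29.8%) and are most often lowest in KO 3 (33.3%).

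Cell type markers differed between the same libraries. The 15 goblet and deep secretory cell markers, 13 negative and 2 positive, summed to between 11104 and 14289 FPKM in wild type and to between 8276 and 14342 FPKM in knockout, lowest in replicate 3. Smooth muscle markers, 8 of 8 positive, summed to between 2713 and 3706 FPKM in wild type and between 2906 and 4438 FPKM in knockout, highest in replicate 3. B and plasma cell markers, 6 of 10 negative, summed to between 395.4 and 427.8 FPKM and between 173.9 and 455.0 FPKM. Pan-epithelial markers, 6 of 8 positive, summed to between 5221 and 5822 FPKM and between 5411 and 6243 FPKM, highest in knockout replicate 1. Squamous epithelium markers, as of the anal margin, were low, and 2 of the 8 were tested, both positive. Their sum over all 8 lay between 7.91 and 12.04 FPKM in wild type and between 12.79 and 31.79 FPKM in knockout. Of 8 tuft cell markers 4 were tested, 1 positive and 3 negative. The tuft cell sum over all 8 lay between 21.52 and 24.10 FPKM (SD 1.3) and between 20.04 and 21.33 FPKM (SD 0.667). Neither sum overlapped between genotypes, though the nearest tuft cell sums were 21.33 and 21.52 FPKM. How often sums of unrelated genes separate was not counted. The summed levels of T cell, colonocyte, endothelial, enteroendocrine, fibroblast, macrophage and neutrophil markers overlapped between genotypes. In that order, positive and negative genes numbered 0 and 6, 7 and 6, 5 and 3, 1 and 6, 7 and 1, 1 and 7, and 5 and 1. Over all tested genes 6986 were positive and 6261 negative. No listed marker was at 0 in all libraries. The part of cell composition in the values of the members was not tested.

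Genes around these enzymes were not called either. Of 26 tested genes that supply nucleotide sugars, 0 had a limma adjusted p under 0.05 and 2 an unadjusted p under 0.05, against 3.40% of all genes, with 14 positive and 12 negative (median 0.01, negative after either rescaling of the libraries). Groups did not overlap in 4 of the 26, 1 higher and 3 lower, against 8.67% of all genes. The fucose kinase Fuk read 7.97, 8.13 and 7.42 FPKM in wild type and 7.01, 6.11 and 6.17 FPKM in knockout (log2 fold change -0.25). Nanp, the phosphatase of sialic acid synthesis, read 12.34, 11.34 and 9.21 FPKM in wild type and 8.68, 8.98 and 8.65 FPKM in knockout (log2 fold change -0.28). Both had separate groups, but with gaps below the pooled SD, at 0.41 against 0.44 FPKM for Fuk and 0.23 against 1.14 FPKM for Nanp. Uap1, which makes UDP-N-acetylglucosamine, was at 52.4 ± 3.31 FPKM and 45.7 ± 4.46 FPKM.

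Of 27 tested sulfotransferases, glycosidases and further capping enzymes, 0 were called and 0 were at an unadjusted limma p under 0.05 (3.40% of all genes), with a median of -0.01. Groups did not overlap in 3 of the 27, 2 higher and 1 lower, against 8.67% of all genes. The lysosomal fucosidase Fuca1 was at 77.6 ± 4.66 FPKM in wild type and 89.2 ± 2.02 FPKM in knockout, with a gap of 6.22 FPKM between the groups against a pooled SD of 3.59 FPKM (limma adjusted p = 0.9995). The sulfotransferases Chst4 and Gal3st2 were at 40.8 ± 5.32 and 32.9 ± 7.14 FPKM and at 37.3 ± 1.54 and 32.5 ± 6.20 FPKM. Among 7 tested mucins and mucin-like genes 3 were positive and 4 negative (median -0.04), with 0 called and 0 at an unadjusted limma p under 0.05 (3.40% of all genes). Groups did not overlap in 1 of the 7, Cd164, against 8.67% of all genes. The gap of Cd164, 1.33 FPKM, was below its pooled SD of 4.42 FPKM. Muc4, a membrane mucin, read 41.83, 35.91 and 31.58 FPKM in wild type and 50.18, 16.93 and 21.88 FPKM in knockout. Cd164 and Emcn, both sialomucins, were at 134.0 ± 2.83 and 124.1 ± 5.58 FPKM and at 8.15 ± 0.609 and 7.34 ± 0.546 FPKM. Of 15 tested lectins and lectin ligands 6 were positive and 9 negative (median -0.05, but 0.0253 without the filter and 0.051 without knockout replicate 3). Among them 0 were called, 0 were at an unadjusted limma p under 0.05 (3.40% of all genes) and 0 had separate groups (8.67% of all genes). Selplg, the ligand of P-selectin, was at 7.34 ± 0.451 and 6.09 ± 1.30 FPKM, and the galectins Lgals3 and Lgals9 at 670.7 ± 60.9 and 738.0 ± 47.5 FPKM and at 115.4 ± 22.2 and 102.2 ± 41.1 FPKM.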

How the data were processed

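Gene-level FPKM, rounded to 2 decimals, were deposited by the authors for 6 poly-A RNA libraries of mouse distal colon, which the submitters' processing notes tie to HISAT2, RSEM and the mm39 build. Their versions and filters are not stated there. Per the labels' protocols the libraries carry no strand mark, so sense and antisense reads cannot be separated, and RSEM may split reads between close paralogs. Symbols came from the file, and 27 that had become dates were restored from their gene numbers through the RefSeq table of GRCm38.p6, which matched 19794 of 19844 genes. Depth was fitted on 383 non-coding genes of up to 150 bases, with between 82.2% and 87.4% of the values within 0.05 of a whole read. The search covered a bounded range of read totals and also fitted a length offset of 36 bases, so the depth is an estimate.

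Genes that reached 1 FPKM in at least 3 libraries were tested with limma 3.58.1 in R 4.3.3 on log2(FPKM + 1), with a mean-variance trend, genotype as the sole term, 4 residual degrees of freedom, two-sided and with Benjamini-Hochberg adjustment at 0.05. Only the limma fit was tried on simulated data, with set changes larger than any log2 fold change of the members, and its outcome is not given here. Groups came from the genotype label. The series text gives 3 mice a group, so replicates were taken as separate animals. The members, roles and gene lists were chosen with earlier results of these data known. Genes are named by rule: in each role the 2 of highest mean and the 2 of smallest p, every tested member with an unadjusted p under 0.05 or separate groups, the 3 of smallest p of each surrounding list, and Mlxipl. The remaining members are given by level, some with replicate values. Some of these, such as B3galt2, St8sia5, Galnt12 and Galnt3, were picked out for their spread or interval. Wbscr17 was added after its values were seen. Of 215 list entries 211 matched a gene. Tables and figures used Python 3.11.15, numpy 2.4.6, pandas 2.3.3 and matplotlib 3.10.9.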

Additional observations from a re-analysis of the deposited data

How the results depend on the processing

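With 3 mice per genotype and a median standard error of 0.141 on the log2 scale, small differences between genotypes in a member are not resolved. Under all 14 alternatives limma called 0 members. Among all genes 2 were called, 3 with a pseudocount of 0.1, without a filter, without the trend or with array weights, 0 with a mean of at least 5 FPKM (316 genes at an unadjusted p under 0.05), 0 with the replicate block (504) and 0 in each fit that left out a mouse (between 314 and 802). Genes with groups that do not overlap numbered 1149, and between 2114 and 2949 with a mouse left out, where fewer values have to separate. For the members this count was 7, it was between 5 and 8 with another filter and between 9 and 14 with a mouse left out. Members at an unadjusted limma p under 0.05 numbered 5, where 450 of all genes were. They numbered 2 with the replicate block and between 2 and 9 with a mouse left out. The 2 came without wild-type replicate 1 and the 9 without knockout replicate 1, where all genes at that level numbered 380 and 802. Same-numbered wild types and knockouts deviated together with correlations of 0.27, -0.096 and 0.063, so the numbers were not taken to pair the mice.

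Of the 11 medians over the members, their roles and the surrounding lists, 10 changed sign with at least 1 mouse left out, the exception being the mucins, so no direction is read from them. The median of the fucosyltransferases was -0.0709, -0.00756 with a mean of at least 5 FPKM, where fewer genes were tested, and between -0.101 and 0.00155 with a mouse left out. That of the sialyltransferases was -0.0326, -0.124 with array weights and between -0.139 and 0.035 with a mouse left out. That of the mucins was -0.036 and lay between -0.147 and -0.00131 with a mouse left out. The causes were not tested.

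Of 511 values of 37 named genes under alternatives, 484 kept their direction and their side of the threshold and 27 changed sign, none with a limma adjusted p under 0.05 in any setting. With a mouse left out, 12 of the 37 genes changed sign, 16 kept it but moved by over 1.5 times in at least 1 fit and 9 did neither, B3gnt7, St6galnac4, Galnt6 and Fut4 among them. With array weights the log2 fold changes were -0.0331 for B3galt5, -0.0173 for B4galnt1, 0.0608 for B4galnt3, -0.00607 for Fut8, 0.0105 for Galnt4, -0.0247 for Gcnt3 and -0.0754 for St6galnac6. With a mouse left out they lay between -0.197 and 0.234 for B3galt5, -0.0181 and 0.493 for B4galnt1, -0.118 and 0.183 for B4galnt2, -0.244 and 0.15 for B4galnt3 and -0.39 and 0.156 for Fut2. Those of Fut8 lay between -0.0144 and 0.116, of Fut9 between -0.261 and 0.0722, of Galnt4 between -0.0872 and 0.045 and of Galnt7 between -0.0251 and 0.132. Those of Gcnt3 lay between -0.0138 and 0.112, of Lgals9 between -0.531 and 0.0235 and of St6galnac6 between -0.0737 and 0.169. The causes were not tested.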
